A study of Mus musculus with 6 samples.

Results

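A set of 35 genes for ion pumps, channels and solute carriers of the lens was followed from 0 h to 72 h after cataract surgery in mice. The genes were taken from a list of symbols, and all 35 were found among the 56940 genes of the count files. All 35 also had enough counts to be tested, with totals over the 6 libraries from 421 for Slc1a5 to 85039 for Trpm3. The fiber cell mass was removed from one eye of a mouse, the second eye was operated on 72 hours later, and both capsules with their attached lens epithelial cells were then collected, which gave 72 h and 0 h tissue. Each time had 3 libraries, and each library was made from 5 pooled capsules, which makes the pool the unit of replication behind each p-value, and both times may hold capsules of the same mice. All samples are labelled C57BL/6, wildtype and cataract surgery, without an age. The sample descriptions also carry the tag RUNX_Cre_N, which the labels do not explain. Every 0 h capsule had itself just been operated on, so an untouched lens is not among the groups.

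The lens has no blood supply, and its epithelium works as its pump. The Na,K-ATPase, a catalytic subunit with a beta subunit that carries it to the membrane, drives sodium out of the tissue and sets the gradient that many other carriers use. Calcium pumps of the plasma membrane and of the endoplasmic reticulum keep cell calcium low, and loss of that control is a known route to opacity. Solute carriers bring in amino acids, vitamin C, taurine and myo-inositol, and TRP and Piezo channels pass cations when a membrane is stretched or swollen.

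The libraries of 0 h held 11338820 to 12432688 reads in genes, those of 72 h 8453450 to 8945397. Levels are given as CPM, read counts scaled to a library size adjusted for composition, and as mean ± SD (n = 3) where the libraries are not listed. Log2 changes compare 72 h with 0 h and carry their SE. Markers of the labelled cell type were present at both times, with Pax6 at 684 ± 23.02 CPM for 0 h and 643 ± 91.5 CPM for 72 h, although 7 of 8 lens epithelial markers fell and all 7 matched lens fiber markers fell. Macrophage and monocyte markers summed to between 31.2 and 49.4 CPM at 0 h and between 152 and 376 CPM at 72 h, and 10 of 12 rose. Neutrophil markers summed to at most 2.45 CPM at 0 h and to between 24.4 and 165 CPM at 72 h, with Ly6g, Mpo and Elane at 0 in all libraries. Ltf, which was not called, made up 135 CPM of the highest sum, that of 72 h replicate 3, and was at 3.59 and 3.70 CPM in the other two 72 h libraries. Of 8 neutrophil markers 3 had enough counts to be tested and 2 of them rose; with 0 h replicate 1 or 72 h replicate 3 left out, which changes the markers that pass the filter, 4 rose. Photoreceptor markers lay between 778 and 1935 CPM at 0 h and between 61.1 and 203 CPM at 72 h, and 8 of 10 fell (5 without 72 h replicate 1). Markers of Müller glia and astrocytes, led by Dkk3, lay between 3245 and 3541 CPM at 0 h and between 1386 and 2202 CPM at 72 h, with 5 of 8 lower and 1 higher (2 higher without 0 h replicate 2 or without 72 h replicate 3). Most of this sum was Dkk3 alone, at 2834 ± 129 CPM for 0 h and 1322 ± 384 CPM for 72 h. Rlbp1, also lower, was at 11.8 ± 1.63 and 1.11 ± 0.658 CPM. Kcnj10, not called, was at 2.32 ± 1.13 and 0.77 ± 0.962 CPM. Markers of retinal pigment epithelium and melanocytes lay between 102 and 127 CPM at 0 h and between 25.1 and 64.6 CPM at 72 h, and 5 of 9 tested fell, against 1 without 0 h replicate 1 and 2 without 0 h replicate 2 or 3. Markers of ciliary epithelium lay between 106 and 129 CPM at 0 h and between 44.3 and 97.3 CPM at 72 h, with 1 of 5 lower. Markers of surface epithelium, which are keratins, summed to 5184 CPM in 72 h replicate 3, against 7.29 and 113 CPM in the other two 72 h libraries and 25.1 to 55.9 CPM at 0 h. Keratocyte and fibroblast markers lay between 339 and 401 CPM at 0 h and between 59.1 and 166 CPM at 72 h, with 2 of 4 tested higher and 2 lower (none lower without 72 h replicate 1). Most of this sum was Pdgfra (227 ± 33.1 CPM for 0 h, 77.2 ± 33.8 CPM for 72 h) and Ogn (135 ± 2.88 and 21.1 ± 12.8 CPM), the 2 lower genes. The 2 higher genes were Dcn (0.947 ± 0.726 and 18.6 ± 12.8 CPM) and Lum (0.0263 ± 0.0455 and 3.28 ± 1.09 CPM). The 3 tested markers each of vascular endothelium and of erythrocytes gave no call (1 endothelial marker rose without 72 h replicate 3). The part of these other cells in the changes below was not tested, and in pooled tissue fewer cells of a type and less RNA per cell cannot be told apart.

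**Figure D1:**
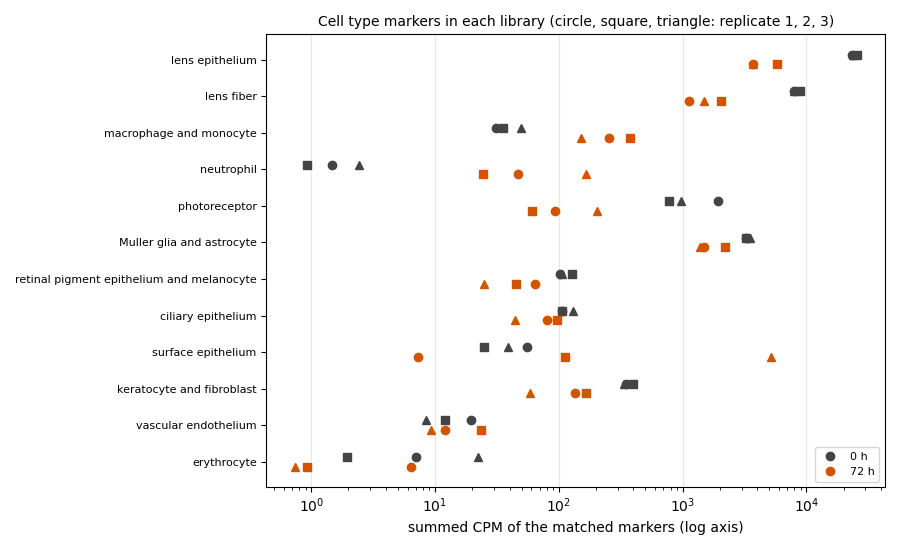
Summed CPM of 12 lists of cell type markers (log axis) in each of the 3 libraries at 0 h (grey) and 72 h (orange). Macrophage and neutrophil sums are higher in every 72 h library than in every 0 h library, photoreceptor sums are lower, and the surface epithelium sum of 5184 CPM belongs to 72 h replicate 3 alone.

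Of the 35 genes, 14 rose, 11 fell and 10 were not called. Calls rest on the quasi-likelihood test of edgeR, with p-values adjusted after Benjamini and Hochberg over the whole table and 0.05 as threshold. The share called was 71.4%, against 38.5% of the 15407 genes tested. The 35 genes were chosen with earlier results of these data known. The genes tested also include some with fewer counts than any of the 35, so the shares given here are not a test of the set. For rises the share was 40.0% against 21% of all tested genes, and for falls 31.4% against 17.5%. A called change of at least 2-fold was seen upward in 9 genes (13.5% of all tested genes) and downward in 9 genes (10.4% of all tested genes). The 0 h and 72 h libraries did not overlap for 28 of the 35 genes, compared with 53.5% of all genes. The median log2 change of the set was 0.21 and that of all tested genes −0.02, while the medians of the size of the change were 1.17 and 0.61. Both directions occurred, differently by kind of carrier: the 3 Na,K-ATPase subunits were lower, the 4 calcium extrusion and storage genes of the set were higher, and amino acid carriers and mechanosensitive channels moved both ways. In the same libraries macrophage markers were higher and photoreceptor markers lower, as given above.

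**Figure D2:**
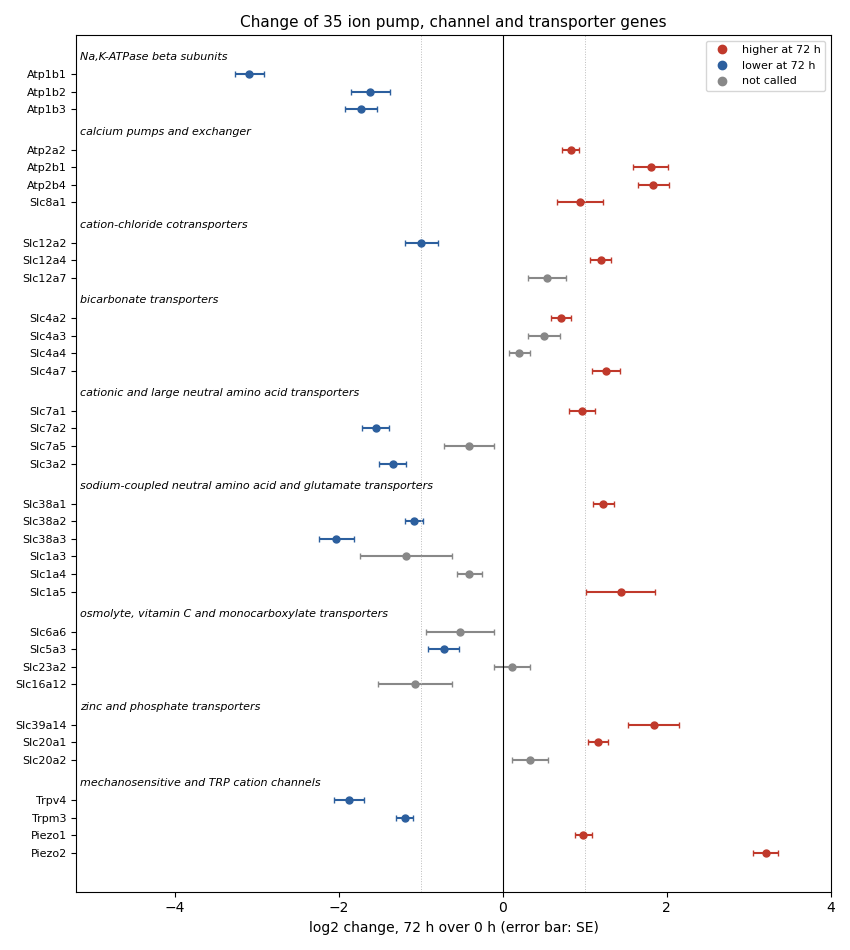
Log2 change from 0 h to 72 h of the 35 genes, grouped by what they carry, with the SE of each change as a bar (edgeR, 3 libraries each); dotted lines mark a 2-fold change. Atp1b1 has the lowest value, at −3.09, and Piezo2 the highest, at 3.21.

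All 3 beta subunits of the Na,K-ATPase fell. Atp1b3 (ENSMUSG00000032412), the most abundant of them, was at 752, 721 and 790.4 CPM in the 0 h libraries and 232, 292 and 159 CPM in those of 72 h. Every 72 h library lay far under every 0 h library, a 3.31-fold fall (log2 change −1.73 ± 0.20, adjusted p = 2.1e-04, edgeR). Atp1b1 (ENSMUSG00000026576), the beta subunit found most widely across tissues, was at 193, 172 and 198 CPM in the 0 h libraries and 17.7, 19.99 and 28.4 CPM in those of 72 h. This was the steepest fall of the set, 8.51-fold (log2 change −3.09 ± 0.18, adjusted p = 1.2e-06), and here 72 h replicate 3 was the highest of the 72 h libraries, whereas it was the lowest for Atp1b3. Atp1b2 (ENSMUSG00000041329), a subunit known from glia and retina, was at 75.3, 59.3 and 65.7 CPM in the 0 h libraries and 21.9, 29.3 and 14.2 CPM in those of 72 h. Its fall was 3.06-fold (log2 change −1.61 ± 0.24, adjusted p = 5.8e-04), without overlap. Photoreceptor markers, which fell as well, summed to 1935, 778 and 976 CPM in the 0 h libraries and 92.5, 61.1 and 203 CPM in those of 72 h; their part in the fall of Atp1b2 was not tested.

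The 250 bases before the RefSeq start of Atp1b1 are shown because this gene had the steepest fall (chr1:164458356-164458605, minus strand, GRCm38.p6, in lower case throughout, since none of the 4 motifs searched below was found in it).
Atp1b1: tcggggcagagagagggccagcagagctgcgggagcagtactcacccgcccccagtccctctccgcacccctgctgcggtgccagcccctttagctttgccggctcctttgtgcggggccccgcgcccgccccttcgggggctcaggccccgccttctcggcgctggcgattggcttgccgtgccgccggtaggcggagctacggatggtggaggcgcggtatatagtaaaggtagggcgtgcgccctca

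Per kilobase of annotated exon, the 3 beta subunits together went from 393 ± 19.6 to 108 ± 28.4 CPM per kb (SD, n = 3). Within the beta family Atp1b3 held 80.4% ± 0.771 at 0 h and 87.9% ± 3.39 at 72 h, and Atp1b1 15.5% ± 0.397 at 0 h and 7.24% ± 3.81 at 72 h. The lower sum at 72 h was thus made up of Atp1b3 to a larger part, and the Atp1b1 share was lower in each 72 h library than in any 0 h library. Exons of the antisense neighbour Nme7 cover 18.7% of the exonic bases of Atp1b1, and the strand setting of the counting is not given.

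All 4 genes of the set that remove calcium from the cytosol rose. Atp2a2 (ENSMUSG00000029467), the pump that loads the endoplasmic reticulum, was at 151, 132 and 142 CPM in the 0 h libraries and 270.4, 255 and 229 CPM in those of 72 h. Its rise was 1.78-fold (log2 change 0.83 ± 0.11, adjusted p = 2.1e-04). The plasma membrane calcium pump Atp2b1 (ENSMUSG00000019943) was at 42.5, 35.4 and 41.4 CPM in the 0 h libraries and 114, 112 and 191 CPM in those of 72 h. The groups lay far apart, a 3.50-fold rise (log2 change 1.81 ± 0.21, adjusted p = 1.8e-04). Its relative Atp2b4 (ENSMUSG00000026463) was at 37.7, 30.6 and 42.04 CPM in the 0 h libraries and 96.9, 140.4 and 158 CPM in those of 72 h. The change was 3.58-fold (log2 change 1.84 ± 0.19, adjusted p = 6.6e-05), and in both genes 72 h replicate 3 was highest. Slc8a1 (ENSMUSG00000054640), the sodium-calcium exchanger, was at 21.02, 19.9 and 16.5 CPM in the 0 h libraries and 26.7, 55.1 and 28.2 CPM in those of 72 h. Although it passed the test (log2 change 0.94 ± 0.28, adjusted p = 0.0233), 72 h replicate 2 was well above the other 72 h libraries, and without it the log2 change was 0.52 (adjusted p = 0.0745). The call was also lost without 0 h replicate 1 (adjusted p = 0.0603), and equally without replicate 2 (0.075) or 3 (0.0975; 0.00117 to 0.0975 over all alternatives). Other calcium pumps and exchangers, outside the set and named after their values were seen, moved both ways: Atp2a3 rose (2.48 ± 0.67 on the log2 scale), while Atp2b2, Atp2a1, Slc24a1, Slc24a2, Slc24a3 and Slc24a4 fell. The log2 changes of these lower genes were −2.43 ± 0.65, −5.31 ± 1.25, −3.19 ± 0.87, −2.71 ± 0.45, −1.57 ± 0.20 and −3.48 ± 0.52. The calls of Slc24a2, Slc24a3 and Slc24a4 held in each alternative run. Omitting 0 h replicate 3 ended those of Atp2a3, Atp2b2 and Atp2a1 (adjusted p = 0.0672, 0.0589 and 0.0741). So did omitting 0 h replicate 2 for Atp2a3 (adjusted p = 0.0587) and 0 h replicate 1 for Atp2b2 (adjusted p = 0.0527). Slc24a1 lost its call with no filter on low counts (adjusted p = 0.0952), with the replicate block (0.0869) and with any library other than 72 h replicate 3 left out (lowest adjusted p = 0.0614, without 72 h replicate 2; highest 0.121, without 72 h replicate 1). Among the 3 pumps of the set, per kilobase, Atp2a2 held 80.6% ± 1.39 at 0 h and 67.6% ± 7.38 at 72 h. Macrophage markers summed to no more than 49.4 CPM at 0 h. Their sum was 376 CPM in 72 h replicate 2, the library with the highest Slc8a1. It was 152 CPM in 72 h replicate 3, where Atp2b1 and Atp2b4 were highest. Photoreceptor markers summed to between 778 and 1935 CPM at 0 h and to between 61.1 and 203 CPM at 72 h. The part of macrophages or of photoreceptors in the changes of these pumps and exchangers was not tested.

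Of the 3 cation-chloride cotransporters in the set, which set cell volume by moving chloride with sodium and potassium, 1 fell, 1 rose and 1 was not called. Slc12a2 (ENSMUSG00000024597), the inward sodium-potassium-chloride cotransporter, was at 271, 273 and 272 CPM in the 0 h libraries and 107, 114 and 189 CPM in those of 72 h. It was nearly the same in the 3 libraries at 0 h and fell 1.99-fold (log2 change −0.99 ± 0.20, adjusted p = 0.00502), least in 72 h replicate 3. Slc12a4 (ENSMUSG00000017765), an outward potassium-chloride cotransporter, was at 29.3, 30.5 and 32.6 CPM in the 0 h libraries and 70.5, 68.97 and 72.03 CPM in those of 72 h. Its groups were far apart and tight, a 2.29-fold rise (log2 change 1.19 ± 0.12, adjusted p = 5.6e-05). Slc12a7, a second potassium-chloride cotransporter, had 30.8 ± 4.60 CPM for 0 h and 44.8 ± 14.5 CPM for 72 h, a difference that was not called (log2 change 0.54 ± 0.23, adjusted p = 0.0928), but it passed without 72 h replicate 3 (log2 change 0.74, adjusted p = 0.00464) and with no filter on low counts (adjusted p = 0.0348). Without 72 h replicate 2 its log2 change was 0.26, and adjusted p ran from 0.00464 to 0.35 over all alternatives. Per kilobase, Slc12a2 made up 72.1% ± 1.23 at 0 h and 37.9% ± 8.10 at 72 h of the 3 genes, and Slc12a4 20.8% ± 0.855 at 0 h and 50.99% ± 4.90 at 72 h. In 72 h replicate 3 the shares of these carriers were close, 47.3% and 45.9%, whereas Slc12a4 led in the other 72 h libraries. This order depends on the length scaling: without it Slc12a2 had the larger share in each 72 h library (53.4% ± 9.72 against 28.3% ± 3.77 for Slc12a4), while the Slc12a2 share was again lower than at 0 h (81.5% ± 1.27).

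The upstream bases of Slc12a4 are shown because its libraries formed tight groups and the window holds a TEAD match (chr8:105966116-105966365, minus strand, GRCm38.p6; capitals mark the match).
Slc12a4: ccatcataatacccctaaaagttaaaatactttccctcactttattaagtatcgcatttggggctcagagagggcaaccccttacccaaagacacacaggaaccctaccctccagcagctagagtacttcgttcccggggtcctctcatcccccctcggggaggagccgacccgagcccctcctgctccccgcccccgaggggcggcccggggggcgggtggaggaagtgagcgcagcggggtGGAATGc

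Of the 4 bicarbonate transporters in the set, which hold cell pH, 2 rose and 2 were not called. Slc4a7 (ENSMUSG00000021733), a sodium-bicarbonate cotransporter, was at 50.5, 36.7 and 34.9 CPM in the 0 h libraries and 103, 83.4 and 106 CPM in those of 72 h. The groups did not overlap and the rise was 2.40-fold (log2 change 1.26 ± 0.17, adjusted p = 2.9e-04). Slc4a2, an anion exchanger, rose 1.64-fold, from 59.7 ± 7.49 to 98.1 ± 3.02 CPM (adjusted p = 0.0013), with 13.7% of its exonic bases under antisense exons. Slc4a4 (ENSMUSG00000060961), the electrogenic cotransporter whose loss in people is linked to eye defects that include cataract, was at 94.9, 89.5 and 88.3 CPM in the 0 h libraries and 89.9, 101 and 124 CPM in those of 72 h. These ranges overlapped (log2 change 0.21 ± 0.13, adjusted p = 0.247), and the log2 change was 0.081 without 72 h replicate 3. Slc4a3, another anion exchanger, averaged 29.7 ± 1.25 CPM for 0 h and 42.2 ± 11.04 CPM for 72 h, a difference that was not called (log2 change 0.51 ± 0.20, adjusted p = 0.0709), though it was without 72 h replicate 2 (log2 change 0.69, adjusted p = 0.00879; 0.00879 to 0.203 over all alternatives) and with no filter on low counts (adjusted p = 0.0457). Without 72 h replicate 3 its log2 change was 0.34.

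Of the 4 carriers of cationic and large neutral amino acids in the set, 2 fell, 1 rose and 1 was not called. Slc7a2 (ENSMUSG00000031596), which takes up arginine and lysine, was at 817, 858 and 919.7 CPM in the 0 h libraries and 245, 382 and 258 CPM in those of 72 h. It fell 2.93-fold (log2 change −1.55 ± 0.16, adjusted p = 7.2e-05), and no 72 h library came near the lowest at 0 h. Its relative Slc7a1 (ENSMUSG00000041313), the arginine carrier of most dividing cells, went the other way from a low level, from 23.3 ± 2.83 to 45.6 ± 3.02 CPM (log2 change 0.97 ± 0.16, adjusted p = 9.1e-04). Per kilobase Slc7a2 nevertheless stayed the higher of the pair, at 94.7 ± 5.64 CPM per kb at 0 h and 32.3 ± 8.28 at 72 h, against 2.02 ± 0.246 and 3.96 ± 0.262 for Slc7a1.

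The upstream bases of Slc7a1 are shown because its window was the only one among these genes with an AP-1 match (chr5:148399905-148400154, minus strand, GRCm38.p6; capitals mark the match, and the first of its 2 listed starts was used).
Slc7a1: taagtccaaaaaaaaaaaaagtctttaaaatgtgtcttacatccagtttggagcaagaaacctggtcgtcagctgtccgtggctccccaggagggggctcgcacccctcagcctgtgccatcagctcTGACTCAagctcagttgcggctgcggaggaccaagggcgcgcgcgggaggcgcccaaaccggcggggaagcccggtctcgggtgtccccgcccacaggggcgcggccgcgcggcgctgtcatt

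Slc3a2 (ENSMUSG00000010095), the heavy chain that carries several Slc7 light chains to the membrane, was at 395, 374 and 396 CPM in the 0 h libraries and 138, 200.2 and 121 CPM in those of 72 h. The fall was 2.54-fold (log2 change −1.34 ± 0.17, adjusted p = 2.3e-04). Slc7a5, a light chain that brings in leucine and other large neutral amino acids, had 61.3 ± 11.2 CPM for 0 h and 46.1 ± 17.9 CPM for 72 h, a difference that was not called (log2 change −0.41 ± 0.30, adjusted p = 0.325). It stood at 25.4 CPM in 72 h replicate 3 and at 56.3 and 56.6 CPM in the other two, so that its log2 change was −0.11 without that library and −0.26 without 0 h replicate 2. Slc7a8, another light chain of Slc3a2 and not one of the 35 genes, was at 795, 804 and 813 CPM in the 0 h libraries and 182, 235 and 132 CPM in those of 72 h. It fell as well (log2 change −2.13 ± 0.18, adjusted p = 2.9e-05), with the smallest p of the lower genes among the other amino acid carriers.

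Of the 3 Slc38 carriers in the set, which bring in neutral amino acids with sodium, 2 fell and 1 rose. Slc38a2 (ENSMUSG00000022462), a carrier of alanine and glutamine that many cells raise when amino acids run short, was at 427, 429 and 443 CPM in the 0 h libraries and 209, 228 and 179 CPM in those of 72 h. It fell 2.11-fold without overlap (log2 change −1.08 ± 0.11, adjusted p = 4.8e-05). Slc38a3 (ENSMUSG00000010064), a glutamine carrier known from liver and glia, was at 88.1, 79.3 and 72.6 CPM in the 0 h libraries and 21.3, 24.03 and 13.5 CPM in those of 72 h. This was a 4.08-fold fall (log2 change −2.03 ± 0.21, adjusted p = 5.3e-05). In the same libraries 5 of 8 markers of Müller glia and astrocytes fell, 1 rose and 2 were not called. The part of such cells in the fall of Slc38a3 was not tested. Slc38a1 (ENSMUSG00000023169), a member that also carries glutamine, was at 44.5, 50.96 and 53.5 CPM in the 0 h libraries and 126, 121 and 102 CPM in those of 72 h. It rose 2.34-fold (log2 change 1.23 ± 0.13, adjusted p = 5.9e-05), and its share of the 3 genes per kilobase was 4.30% ± 0.426 at 0 h and 20.1% ± 1.12 at 72 h. Slc38a2 had the largest share at both times, with 73.1% ± 1.67 at 0 h and 69.1% ± 1.46 at 72 h.

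Of the 3 Slc1 carriers in the set, Slc1a5 passed the test. Slc1a5 (ENSMUSG00000001918), a glutamine exchanger of dividing cells, was at 5.88, 1.95 and 4.18 CPM in the 0 h libraries and 12.4, 9.93 and 10.3 CPM in those of 72 h. It rested on few reads, 421 over the 6 libraries, and rose 2.71-fold (log2 change 1.44 ± 0.42, adjusted p = 0.0219). Leaving out 0 h replicate 2 or 3 ended the call (adjusted p = 0.0701 and 0.0741), as did leaving out 72 h replicate 1 (adjusted p = 0.064). Over all alternatives adjusted p ran from 0.00684 to 0.0741. Slc1a3, the glutamate carrier of astrocytes and Müller cells, was at 41.3, 39.03 and 46.9 CPM in the 0 h libraries and 24.1, 26.8 and 5.14 CPM in those of 72 h. No 72 h library reached the lowest 0 h library, while 72 h replicate 3 was far under the other 72 h libraries, and the gene was not called (log2 change −1.18 ± 0.56, adjusted p = 0.155). It passed with DESeq2 (adjusted p = 0.0154), with limma voom (0.0213) and without 72 h replicate 3, where the log2 change was −0.72 (adjusted p = 0.00254; 0.00254 to 0.318 over all alternatives). Slc1a4, a serine and alanine exchanger, averaged 41.6 ± 3.74 CPM for 0 h and 31.4 ± 3.08 CPM for 72 h and missed the threshold (log2 change −0.41 ± 0.15, adjusted p = 0.0582), although its groups did not overlap. It passed with upper quartile normalization (adjusted p = 0.03) and without 72 h replicate 1 (0.0424; 0.03 to 0.201 over all alternatives).

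Of the 4 carriers of osmolytes, vitamin C and monocarboxylates, 1 was called. Slc6a6 (ENSMUSG00000030096), the taurine carrier, was at 1040.3, 1087 and 1303 CPM in the 0 h libraries and 824, 1179 and 389 CPM in those of 72 h. The groups overlapped, since 72 h replicate 2 was above 2 of the 0 h libraries, and no call was made (log2 change −0.52 ± 0.41, adjusted p = 0.382). Its log2 change was −0.18 with 72 h replicate 3 left out and −0.92 with 72 h replicate 2 left out. Slc5a3, the myo-inositol carrier, fell from 399 ± 16.7 to 242 ± 68.3 CPM (log2 change −0.72 ± 0.18, adjusted p = 0.013), and removal of 0 h replicate 3 (adjusted p = 0.0556) or of 72 h replicate 2 (adjusted p = 0.056) ended the call. Adjusted p ran from 5.4e-04 to 0.056 over all alternatives. Slc23a2, the sodium-coupled vitamin C carrier, had 34.1 ± 3.09 CPM for 0 h and 36.99 ± 10.9 CPM for 72 h (log2 change 0.12 ± 0.22, adjusted p = 0.715). Its direction turned when 72 h replicate 1 or 2 was left out (log2 change −0.013 and −0.017), and the log2 change was 0.35 without 72 h replicate 3.

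Slc16a12 (ENSMUSG00000009378), a creatine and monocarboxylate carrier in which a human mutation causes cataract, was at 52.8, 53.7 and 51.6 CPM in the 0 h libraries and 23.2, 41.7 and 10.4 CPM in those of 72 h. All 72 h libraries lay under the 0 h libraries, which lay close together, while the 72 h libraries were far apart among themselves, and the gene was not called (log2 change −1.07 ± 0.46, adjusted p = 0.116). It passed without 72 h replicate 2 (log2 change −1.65, adjusted p = 0.00471), without 72 h replicate 3 (log2 change −0.69, adjusted p = 0.0165), with DESeq2 (adjusted p = 0.0102) and with limma voom (0.0138; 0.00471 to 0.282 over all alternatives). Bsg, the chaperone that brings several Slc16 carriers to the membrane, fell from 1065 ± 18.7 to 581 ± 84.7 CPM (log2 change −0.87 ± 0.12, adjusted p = 2.8e-04). The 72 h library with the lowest Slc16a12, Slc1a3, Slc6a6, Slc7a5 and Slc23a2 was in each case replicate 3. That library also held 5184 CPM of surface epithelium markers. Of the 10 genes not called, 8 had their lowest 72 h value there. The same count was not made over all tested genes, and a link to these markers was not tested.

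Of the 3 zinc and phosphate carriers in the set, 2 rose and 1 was not called. Slc39a14 (ENSMUSG00000022094), which brings in zinc, iron and manganese and is induced in inflammation in liver, was at 11.2, 6.69 and 15.5 CPM in the 0 h libraries and 45.4, 44.9 and 29.5 CPM in those of 72 h. The rise was 3.58-fold (log2 change 1.84 ± 0.31, adjusted p = 0.00116). Slc20a1 (ENSMUSG00000027397), a sodium-phosphate cotransporter, was at 32.95, 38.4 and 34.2 CPM in the 0 h libraries and 78.95, 80.6 and 77.2 CPM in those of 72 h. The libraries of each time lay close together and the groups were far apart, a 2.24-fold rise (log2 change 1.17 ± 0.12, adjusted p = 6.5e-05), with 13.1% of its exonic bases under antisense exons. Slc20a2, the second cotransporter of this family, was at 64.4, 66.03 and 71.1 CPM in the 0 h libraries and 101, 98.8 and 53.7 CPM in those of 72 h. It was not called (log2 change 0.33 ± 0.22, adjusted p = 0.266), but without 72 h replicate 3 it passed (log2 change 0.58, adjusted p = 5.6e-04; 5.6e-04 to 0.612 over all alternatives). Its log2 change was 0.18 with 72 h replicate 1 left out and 0.20 with 72 h replicate 2 left out. Per kilobase Slc20a1 made up 36.8% ± 2.24 at 0 h and 51.9% ± 8.38 at 72 h of the pair.

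Of the 4 mechanosensitive and TRP channels in the set, 2 rose and 2 fell. Piezo2 (ENSMUSG00000041482), a stretch-gated cation channel best known from touch neurons, was at 88.1, 67.7 and 101 CPM in the 0 h libraries and 819, 725 and 829 CPM in those of 72 h. It had the largest rise of the set, 9.24-fold (log2 change 3.21 ± 0.15, adjusted p = 4.9e-07), and the 3 libraries at 72 h lay close together. Piezo1 (ENSMUSG00000014444), its relative in many epithelia and in endothelium, was at 199.6, 204 and 194 CPM in the 0 h libraries and 441, 369 and 369 CPM in those of 72 h. This was a 1.97-fold rise (log2 change 0.98 ± 0.10, adjusted p = 6.3e-05), with 24.6% of the exonic bases of Piezo1 under those of the antisense gene Ctu2. Piezo2 held 19.9% ± 3.50 at 0 h and 53.8% ± 2.43 at 72 h of the pair per kilobase. The markers of vascular endothelium, a tissue rich in Piezo1, lay between 8.44 and 19.7 CPM at 0 h and between 9.29 and 23.5 CPM at 72 h. Only 3 of these 7 markers had enough counts to be tested. The part of endothelium in the rise of Piezo1 was not tested.

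Trpv4 (ENSMUSG00000014158), a channel that senses swelling and heat and takes part in the pressure control of the lens, was at 40.04, 40.5 and 46.2 CPM in the 0 h libraries and 10.3, 10.7 and 13.6 CPM in those of 72 h. It fell 3.66-fold (log2 change −1.87 ± 0.18, adjusted p = 3.9e-05). Trpm3 (ENSMUSG00000052387), a cation channel in which a human mutation causes cataract, was at 1727, 1843 and 1832 CPM in the 0 h libraries and 779, 866 and 715 CPM in those of 72 h. By counts it was the most deeply covered of the 35 genes, and it fell 2.29-fold with a narrow spread at both times (log2 change −1.19 ± 0.10, adjusted p = 1.5e-05).

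**Figure D3:**
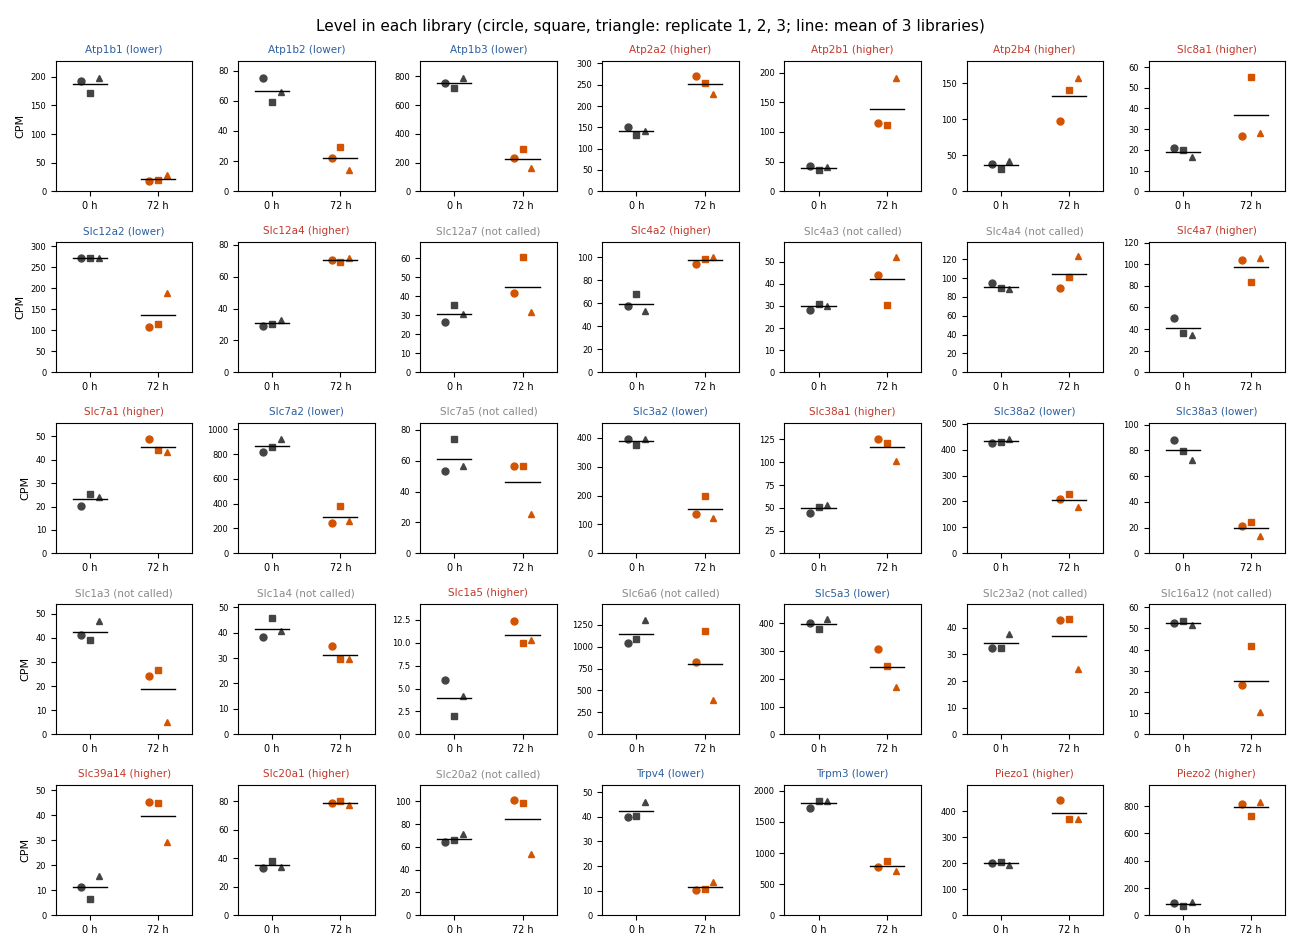
CPM of each of the 35 genes in the 6 libraries (axes start at 0; a line marks the mean of 3 libraries), with the call in the panel title. Slc12a4, Slc20a1 and Piezo2 show tight groups that lie apart, whereas Slc6a6, Slc16a12 and Slc1a3 show 72 h libraries spread widely with replicate 3 (triangle) lowest.

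Scaled by exon length, Atp1b3 had the highest level of the 35 genes at 0 h, 316 ± 14.6 CPM per kb (SD, n = 3), followed by Slc6a6 at 135 ± 16.6, Slc3a2 at 110.04 ± 3.42, Slc7a2 at 94.7 ± 5.64, Trpm3 at 73.7 ± 2.60 and Atp1b1 at 60.8 ± 4.34. At 72 h Atp1b3 (95.3 ± 27.99) and Slc6a6 (94.3 ± 46.8) differed by less than their spread. Piezo2 came next at 46.1 ± 3.34 CPM per kb, up from rank 23 of 35 at 0 h to rank 3. It differed from Slc3a2 (43.4 ± 11.8) by less than the spread of Slc3a2. Atp2a2 (41.3 ± 3.45) and Piezo1 (39.6 ± 4.20) followed, with ranges of mean ± SD that overlapped that of Piezo2. Per kilobase, Piezo2 was nevertheless above Piezo1 in each 72 h library. Atp1b1 went from rank 6 to rank 21, at 7.15 ± 1.82 CPM per kb. The lowest gene at 0 h was Slc1a5 at 0.959 ± 0.473 CPM per kb, within its spread of Slc8a1 and Slc39a14. Lengths are the merged exons of GENCODE M21, which can be longer than the transcripts present.

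**Figure D4:**
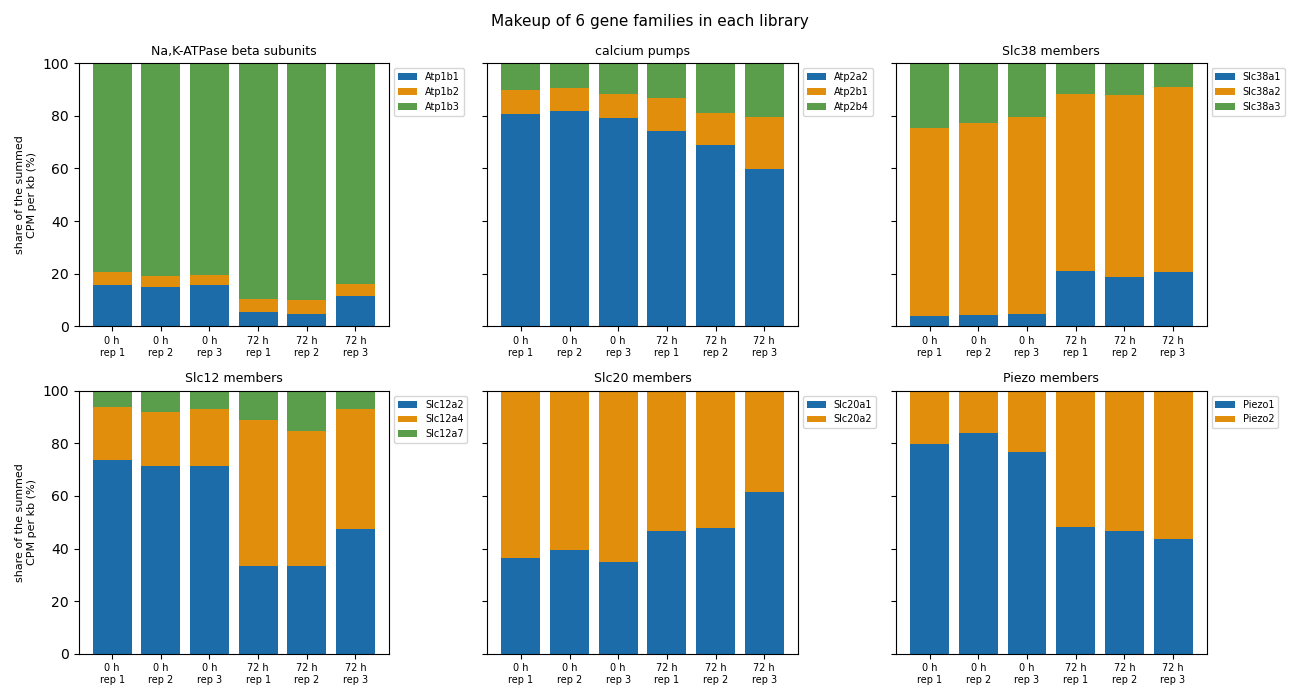
Share of the summed CPM per kb held by each gene of 6 families in each library (stacked to 100%). The Slc12a2 share goes from 72.1% to 37.9% on average and the Piezo2 share from 19.9% to 53.8%, and in both families the shares at 72 h do not overlap those at 0 h.

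Other carriers and channels were counted from 7 lists holding 191 genes, of which 150 were tested. In them 51 genes rose and 34 fell, 56.7% of those tested against 38.5% of all genes, with a median log2 change of 0.18. Of all tested genes 21% rose and 17.5% fell, and the shares of each list are given for comparison. Among partner subunits and other pumps 2 of 10 rose (20%, 1 gene without 0 h replicate 2 or 3) and 6 fell (60%). Fxyd5, a regulator that binds the Na,K-ATPase, rose from 0.306 ± 0.132 to 21.99 ± 0.899 CPM (log2 change 6.11 ± 0.38, adjusted p = 2.3e-06). Other ion carriers rose for 3 of 24 genes (12.5%) and fell for 9 (37.5%, 5 genes without 0 h replicate 1 or 3). Slc24a3, a potassium-dependent sodium-calcium exchanger, had a log2 change of −1.57 ± 0.20. Other amino acid carriers rose for 3 of 20 genes (15%, 6 genes without 72 h replicate 3) and fell for 9 (45%). Slc43a2, a leucine carrier, was among the higher (log2 change 1.20 ± 0.17) and Slc7a8 among the lower.

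Sugar, organic solute and metal carriers outside the set rose for 10 of 30 genes (6 without 0 h replicate 1 or 2) and fell for 1. The share called, 36.7%, was near the 38.5% of all tested genes. The count of falls became 3 without 72 h replicate 2 or with limma voom, and 2 without 72 h replicate 3. It became 0 with the stricter filter on low counts, which drops genes under 100 counts in all. The lactate exporter Slc16a3 rose (2.24 ± 0.19 on the log2 scale). The lower gene, Slc16a8, a lactate carrier of the retinal pigment epithelium, had 58 counts at 0 h and 0 at 72 h. This was at least 13.7-fold lower against a floor of 3 counts over the group. Of 9 tested markers of retinal pigment epithelium and melanocytes, 5 fell and 4 were not called. Only 1 fell without 0 h replicate 1, and 2 without 0 h replicate 2 or 3. The part of such cells in the fall of Slc16a8 was not tested. Of the other TRP, mechanosensitive, potassium and chloride channels, 21 of 36 rose (58.3%) and 5 fell (13.9%), against 21% and 17.5% of all tested genes. Clic4, an intracellular chloride channel protein, rose from 14.8 ± 0.855 to 87.9 ± 7.71 CPM (log2 change 2.57 ± 0.14, adjusted p = 9.2e-07). Itpr1, a calcium release channel of the endoplasmic reticulum, fell from 300.1 ± 13.7 to 148 ± 5.47 CPM (log2 change −1.02 ± 0.093, adjusted p = 2.5e-05).

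The last 2 lists held genes that are known to respond with some of these carriers. The first held genes of amino acid deprivation and targets of ATF4, the transcription factor of amino acid shortage, with Atf4 itself among them. Of its 24 tested genes 10 rose (41.7%) and 2 fell (8.33%), against 21% and 17.5% of all tested genes. Only 4 or 5 rose when any 0 h library was left out (5, 4 and 5 without replicates 1, 2 and 3). The higher genes among all tested dropped too, from 3230 of 15407 to 2518 of 15974, 2511 of 16052 and 2518 of 15992. Atf4, counted among the 10, rose from 79.3 ± 3.96 to 165 ± 3.75 CPM (log2 change 1.06 ± 0.096, adjusted p = 2.3e-05), while Phgdh, the first enzyme of serine synthesis, fell (log2 change −1.93 ± 0.16, adjusted p = 1.2e-05). Among genes of osmotic stress, 2 of 7 rose (28.6%) and 2 fell (28.6%), against 21% and 17.5% of all tested genes. Hspa4l, a chaperone induced by osmotic stress, rose by 0.96 ± 0.14 on the log2 scale, and Akr1b3, the aldose reductase that makes sorbitol, had a log2 change of −1.44 ± 0.19.

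Promoter windows of 300 bases, 250 before and 50 after the start, were found for 23 of the 35 genes in RefSeq (GRCm38.p6). Matches on either strand were counted for AP-1 (TGANTCA), RUNX (TGTGGT), TEAD (GGAATG) and the ATF4 element CARE (TGATGNAA). These letters were present in 7.93%, 16.9%, 14.6% and 4.06% of 27025 windows of all genes. Among the 9 windows of genes that rose, 1 held AP-1, 1 RUNX, 2 TEAD and none CARE; among the 7 of genes that fell, 1 held RUNX and none the other motifs. The 7 windows of genes not called held 1 CARE match. Median GC content was 66.7% in the 23 windows and 52.7% in all windows.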

How the data were processed

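Each library has 1 file of raw counts by Ensembl gene as the authors deposited it, not normalized. Per the labels' protocols, extraction used an RNeasy Mini Kit and library preparation the stranded Takara SMARTer Pico v2 kit. Per the submitters' processing notes the tools were HISAT2, HTSeq and edgeR, with GRCm39 as build; versions, annotation release and strand setting are not given in the sources used here. Reads given to no gene (5 lines per file; their share was 44.0% ± 1.82 for 0 h libraries and 49.7% ± 1.86 for 72 h libraries, SD, n = 3) were left out. Symbols, exon lengths and exon overlaps came from GENCODE M21 (GRCm38) by Ensembl identifier, which matched 51947 of 56940 genes; the marker Lim2 was not matched, and for a symbol with 2 identifiers the one with more counts was used.

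Genes were filtered with filterByExpr (minimum count 10, minimum total 15), scaled by TMM and tested with robust quasi-likelihood fits in edgeR 4.0.16 (R 4.3.3), two-sided, with time as the only term, prior count 0.125 and Benjamini-Hochberg adjustment over 15407 genes. The SE is the log2 change divided by the root of F. Alternatives used DESeq2 1.42.0, limma 3.58.1 (voom), other scalings and filters, a replicate block and each library left out. The members and lists were chosen with earlier results of these data known, so no list was tested as a set. All 35 genes are named; values in every library are given for called changes of at least 2-fold, for the gene with the most counts in each group and for a few others, chosen after their values were seen. From each further list the called gene with the smallest p in each direction is named; a few genes under this rule are not reported here. The 4 motifs were chosen after the changes were known, and the first listed start of a gene was used. Counting intervals do not cover PCR copies, so the floor of 3 counts covers counting error only.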

Additional observations from a re-analysis of the deposited data

How the results depend on the processing

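Over 15 alternatives, 22 of the 25 called genes among the 35 kept direction and call in each; Slc8a1, Slc1a5 and Slc5a3 lost their call in some, as given with their values. Of 525 pairs of gene and alternative, 500 kept both, 9 lost a call, 14 gained one and 2 reversed, both for Slc23a2 (log2 change −0.013 without 72 h replicate 1 and −0.017 without 72 h replicate 2; 0.35 without 72 h replicate 3). The genes that rose numbered 12 to 16 and those that fell 10 to 13 when 1 library was left out (16 and 13 without 72 h replicate 3), and 14 to 16 and 11 to 13 under the other settings. Over all tested genes the counts were 2511 to 3646 higher and 1877 to 3265 lower with 1 library left out. The scalings moved the median of all genes by at most 0.085 on the log2 scale, downward with upper quartile normalization. With no length scaling the fall in the Slc38a2 share of the Slc38 genes was larger (−16.7 points, against −4.04 points per kilobase). With the replicate number as a block, 14 of the 35 genes rose and 11 fell, as without it; same-numbered libraries are not said to be paired, and their deviations correlated at −0.033, 0.052 and −0.013. Depth limits Slc1a5, with 421 counts in all.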

Other observations

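Further channels and carriers stood out after their values were seen. Lrrc8c, a subunit of the volume-regulated anion channel, was at 1.21, 0.339 and 0.789 CPM in the 0 h libraries and 69.9, 57.1 and 37.8 CPM in those of 72 h (log2 change 6.12 ± 0.40, adjusted p = 4.0e-06, edgeR). Ano1, a calcium-activated chloride channel, was at 0.0865, 2.29 and 1.26 CPM in the 0 h libraries and 40.3, 67.7 and 51.2 CPM in those of 72 h (log2 change 5.43 ± 0.71, adjusted p = 0.00175), and its log2 change ran from 4.89 (0 h replicate 1 left out) to 6.22 (0 h replicate 2 left out). The creatine carrier Slc6a8 was at 11.1, 9.40 and 6.86 CPM in the 0 h libraries and 42.7, 44.7 and 63.3 CPM in those of 72 h (log2 change 2.46 ± 0.24, adjusted p = 3.5e-05). Itpr3, a calcium release channel related to Itpr1, rose from 115.1 ± 8.44 to 349.8 ± 59.9 CPM (log2 change 1.60 ± 0.13, adjusted p = 1.4e-05), whereas Itpr1 fell. Of the 35 genes, 21 had their lowest 72 h value in 72 h replicate 3, 3 their middle value and 11 their highest. The same count was not made over all tested genes, so it is not known whether this pattern is particular to the 35 genes. That library also held 5184 CPM of surface epithelium markers, and a link between them and these positions was not tested.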
